A study of Danio rerio with 2 samples.

Results

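The endoplasmic reticulum (ER) folding and protein secretion genes are a list of 39 zebrafish genes whose products carry a nascent secreted protein into the ER, trim and glycosylate it, fold it and sense its misfolding. Members were taken by gene symbol from the feature tables and kept where they had at least 20 counts over both libraries. All 39 listed genes passed, out of 12868 gene symbols with that many counts, and their totals ran from 620 counts for ssr1 to 126712 counts for xbp1. The list held 9 Hsp70-type and J-domain chaperones with their helpers, 4 disulfide isomerases, 4 lectin chaperones, 8 subunits of the translocon and of the translocon-associated protein complex (TRAP), 4 signal peptidase subunits, 6 oligosaccharyltransferase subunits, and a group of 4 made of the stress sensors and regulators xbp1, atf6 and ddit3 and the ER-associated degradation gene derl1. The members' levels were followed along the lyz share of a cell, by mmp9, and over the marrow's cell classes.

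Proteins destined for granules, the membrane or secretion enter the ER through the Sec61 channel as they are made, lose their signal peptide to signal peptidase and receive N-linked glycans from oligosaccharyltransferase. Chaperones such as the Hsp70 protein BiP (hspa5), calreticulin and calnexin, and the protein disulfide isomerases then fold them, and a load of unfolded protein switches on the unfolded protein response through the sensors Ire1, Perk and Atf6. Neutrophils make most of their granule proteins, lysozyme among them, while they mature in the hematopoietic organ, which in zebrafish is the kidney marrow.

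The study sorted kidney marrow of 2 male fish, aged 6 months and carrying both Tg(lysC:CFPNTR), which labels neutrophils, and Tg(BACmmp9:Citrine-CAAX), which reports mmp9, and asked how neutrophils of different Mmp9 levels differ. One droplet library held LysC+ cells from the Mmp9 NO, INT and HI gates together, and the other held unsorted whole kidney marrow (WKM) of the same fish from a live gate without debris. Cells had been tagged with lipid barcodes at 2 µM, but the count files used here tie no cell to a fish or a gate, so each library is 1 sample. No comparison below therefore has a replicate check, no p-value is given, and the intervals (95%) cover counting error only.

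After filters, 15102 cells with 49531298 UMIs (unique molecular counts, each standing for 1 captured RNA molecule) remained in the sorted library and 8191 cells with 40709152 UMIs in WKM, at medians of 2236 and 3357 UMIs per cell. The libraries shared 41 cell barcodes. Neutrophil markers other than lyz (mpx, npsn, lect2l, ncf1 and cfl1l) defined a neutrophil gate that took 95.8% of sorted cells and 60.9% of WKM cells (4992 cells), and monocyte or macrophage, B and T or NK gates took 0 sorted cells. The CFPNTR transcript stood at 82.1 CPM (counts per 1e+06 UMIs of the group) in the sorted library and 31.9 CPM in WKM, and Citrine at 4.38 CPM and 0.958 CPM.

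Cells were ordered by the share of their UMIs that came from lyz, the lysozyme gene, in bands of under 2%, 2 to 5%, 5 to 10% and over 10%. In the sorted library these held 6578, 3045, 3714 and 1765 cells, and among WKM cells in the neutrophil gate 1980, 1149, 967 and 896 cells. Other quantities moved along the same bands. Median depth was 1667, 2478, 3257 and 7072 UMIs in the sorted bands and 1685, 2426, 3853 and 6099 UMIs in the WKM neutrophil bands. Cells with a UMI of a mitotic gene made up 3.09%, 18.5%, 33.1% and 32.6% of the sorted bands, and the summed cytosolic hsp70 genes, a mark of heat or handling stress, stood at 1035, 676, 520 and 299 CPM there, against 18.7, 11.2, 19.5 and 6.50 CPM in the WKM neutrophil bands. Erythroid markers in the WKM neutrophils, a gauge of free RNA or attached cells, were at 50948, 35844, 22588 and 14140 CPM.

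Low-lyz neutrophils of both libraries had less RNA of the folding and translocation machinery than high-lyz neutrophils, in the chaperone, isomerase, lectin, translocon and oligosaccharyltransferase roles. In cells under 2% lyz over cells over 10% lyz, 25 of 39 members were at least 2-fold lower in the sorted library and 0 were higher, with a median log2 ratio of −1.48. Over all 10349 genes with at least 20 counts in the cells compared, 12.0% were at least 2-fold lower and 28.0% higher, with a median of 0.44, so that the members lay 1.92 below the median gene. Gated WKM neutrophils gave 23 of 39 members lower and 0 higher, with a median of −1.34 against 0.49 over all genes, where 8.42% of genes were lower and 26.3% higher. Among WKM neutrophils of 1500 to 4000 UMIs, however, the count was 9 lower and 2 higher of 33 members with enough counts. The all-gene shares just given are for cells of every depth and are no background for that count. The members together took 0.520%, 0.601%, 0.672% and 0.757% of the UMIs of the sorted bands from low to high lyz, and 0.441%, 0.477%, 0.542% and 0.605% in WKM neutrophils.

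**Figure D1:**
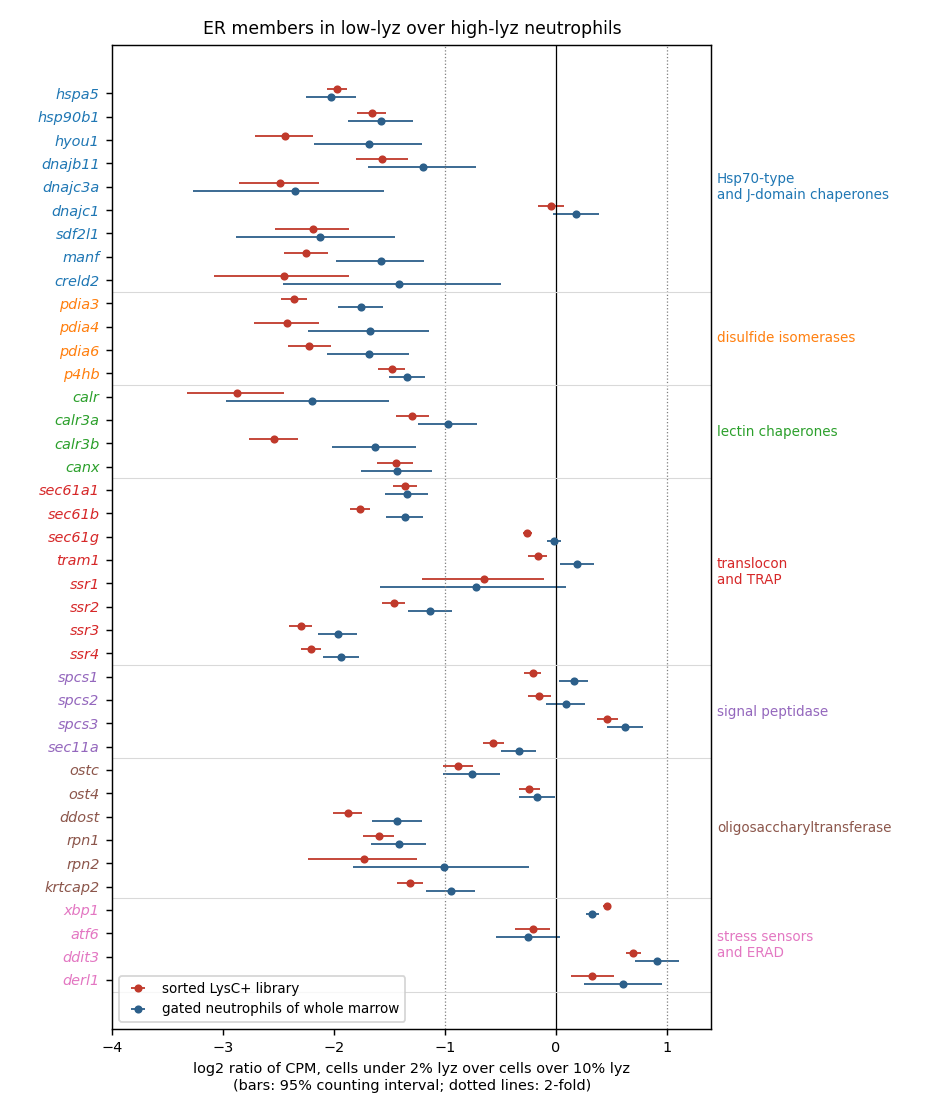
The log2 ratio of CPM in cells under 2% lyz over cells over 10% lyz is plotted for each of the 39 members, grouped by role, in the sorted library (red) and in gated WKM neutrophils (blue), with 95% counting intervals. All isomerases, 8 of 9 chaperones (not dnajc1), 5 of 8 translocon and TRAP members and the lectin chaperones other than calr3a lie left of the 2-fold line in both libraries, while signal peptidase, xbp1, ddit3 and derl1 lie near or right of 0. Relative to the all-gene medians of 0.44 and 0.49, xbp1 would lie at 0.01 and −0.16 and derl1 at −0.12 and 0.12.

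Among the chaperones, 8 of 9 were at least 2-fold lower in low-lyz cells of either library. hspa5, which encodes BiP and had the most counts of the role, stood at 98.2, 245, 340 and 385 CPM from the lowest to the highest lyz band of the sorted library and at 53.0, 99.8, 176 and 216 CPM in WKM neutrophils. Its level was higher at each step, and its log2 ratio between the end bands was −1.97 (−2.06 to −1.88) in the sorted library and −2.03 (−2.25 to −1.81) in WKM neutrophils. hsp90b1, the ER member of the Hsp90 family, gave 49.8, 103, 152 and 157 CPM in sorted cells and 32.4, 48.8, 87.0 and 96.8 CPM in WKM neutrophils. hyou1, a large Hsp70-like nucleotide exchange factor for BiP, had 11.5, 33.0, 56.4 and 62.4 CPM in sorted cells and 11.9, 16.3, 27.6 and 38.2 CPM in WKM neutrophils. Its WKM end ratio of −1.68 turned to 1.57 among cells of 1500 to 4000 UMIs, with few counts in the high-lyz cells there. In the sorted library hsp90b1 and hyou1 differed little between the last 2 bands, and the groups at the ends of the axis lay far apart in both libraries.

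The BiP co-chaperone dnajc3a was the most unequal chaperone in both libraries, at 6.09 against 34.3 CPM in the end bands of sorted cells (log2 ratio −2.49, −2.86 to −2.14) and 3.78 against 19.3 CPM in WKM neutrophils (−2.35, −3.27 to −1.55). dnajb11, another J-domain partner of BiP, had ratios of −1.57 and −1.20, sdf2l1, an ER chaperone cofactor, −2.19 and −2.13, and manf, a secreted and ER-resident BiP partner, −2.25 and −1.58, sorted library first. Among cells of 1500 to 4000 UMIs dnajb11 turned to 0.061 in the sorted library and 2.15 in WKM neutrophils, and manf to 0.33 in WKM neutrophils. These WKM ratios rest on few counts in the high-lyz cells of that depth and are given without an interval. creld2, an ER stress target, was at 2.24 against 12.2 CPM in the sorted end bands, a log2 ratio of −2.45, and was the least counted of the role. The exception was dnajc1, a membrane J-domain protein, with 91.0, 81.0, 83.5 and 94.0 CPM along the sorted bands and an end ratio of −0.05 (−0.16 to 0.07), or −0.49 relative to the median gene.

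All 4 disulfide isomerases were lower in low-lyz cells of both libraries. pdia3, which works with the lectin chaperones on glycoproteins, stood at 55.8, 132, 207 and 286 CPM in the sorted bands and 65.7, 106, 164 and 223 CPM in WKM neutrophils, with end ratios of −2.36 (−2.48 to −2.24) and −1.76 (−1.97 to −1.56). pdia4 and pdia6 gave −2.42 and −2.22 in sorted cells and −1.67 and −1.69 in WKM neutrophils. p4hb, the classical protein disulfide isomerase, gave −1.48 and −1.34. It was also the member whose level was lowest in the sorted library relative to WKM, as given below.

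The 3 calreticulin genes and calnexin were also lower under 2% than over 10% lyz in both libraries, but only canx was higher at each step of both. calr had the largest ratio of any member in the sorted library, 4.09 against 30.0 CPM, or −2.88 (−3.33 to −2.46), and in WKM neutrophils it had 5.14 against 23.7 CPM. In sorted cells of 5 to 10% lyz it was at 34.7 CPM, above the last band. calr3b gave 15.5, 60.4, 88.7 and 90.6 CPM along the sorted bands and calr3a 41.5, 86.8, 105 and 102 CPM, so both were about as high at 5 to 10% as over 10% lyz. canx, the membrane-bound calnexin, was at 33.9, 53.7, 73.6 and 92.4 CPM and was higher at each step. The 3 calreticulin genes are paralogs, and how reads shared between them were counted was not tested.

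Translocon and TRAP members split. The TRAP subunits ssr3 and ssr4, which assist the entry of nascent chains, were at 74.6, 158, 249 and 368 CPM and at 93.1, 182, 288 and 430 CPM in the sorted bands, with end ratios of −2.30 and −2.21, and at −1.97 and −1.94 in WKM neutrophils. sec61a1, the channel's pore subunit, gave −1.36 and −1.35 in the 2 libraries, and sec61b, its tail-anchored subunit, −1.77 and −1.37. sec61g, the remaining channel subunit, had 737, 875, 845 and 882 CPM in the sorted bands and 859, 1077, 979 and 868 CPM in WKM neutrophils, an end ratio of −0.26 (−0.30 to −0.22) and −0.02. The transcripts of one channel thus had unequal ratios, with sec61g near level on the CPM scale and the other subunits more than 2-fold lower in low-lyz cells. Relative to the median gene sec61g was lower in both libraries too, though less so than the other subunits. tram1, a membrane protein beside the channel, was near level too, at −0.17 in the sorted library and 0.19 in WKM neutrophils (−0.61 and −0.30 relative to the median gene), and ssr1 was thinly counted, with −0.65 (−1.21 to −0.11) in sorted cells.

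Oligosaccharyltransferase had 4 of 6 subunits at least 2-fold lower in sorted low-lyz cells and 3 of 6 in WKM neutrophils. ddost, a subunit of its core, stood at 47.9, 91.3, 134 and 176 CPM in the sorted bands (−1.88) and at 54.3, 62.8, 109 and 147 CPM in WKM neutrophils (−1.43), and the ribophorin rpn1 gave −1.60 and −1.42. krtcap2 was at −1.31 in sorted cells and −0.95 in WKM neutrophils, and rpn2 at −1.73 and −1.01. The small subunit ost4 was close to level in both on the CPM scale, at −0.24 and −0.17, with ostc between them at −0.88 and −0.76. Relative to the median gene ost4 was lower in both libraries.

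Signal peptidase had 0 of 4 subunits past 2-fold in either library. spcs1, its most counted subunit, had 183, 194, 192 and 212 CPM along the sorted bands and 216, 214, 192 and 193 CPM in WKM neutrophils. spcs2 gave end ratios of −0.15 and 0.09, the catalytic subunit sec11a −0.57 and −0.33, and spcs3 0.46 and 0.62. With the median gene taken off, spcs1 was at −0.65 and −0.33, spcs2 at −0.60 and −0.40, sec11a at −1.01 and −0.82 and spcs3 at 0.02 and 0.13, so that the level signs of this role depended on the scale. The role's summed level was 569 CPM in sorted cells of 1 to 2% lyz and 659 CPM in those of 10 to 12% lyz, while the summed isomerases were at 172 and 578 CPM in the same cells.

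None of the stress group passed 2-fold in either direction. xbp1, the transcription factor that Ire1 activates by splicing, stood at 1914, 1713, 1520 and 1397 CPM from low to high lyz in the sorted library and at 1251, 1181, 1085 and 996 CPM in WKM neutrophils, end ratios of 0.45 (0.43 to 0.48) and 0.33 (0.27 to 0.38), which became 0.01 and −0.16 once the median of all genes was taken off. Relative to the median gene xbp1 was thus level in sorted cells and slightly lower in low-lyz WKM neutrophils. The counts come from 3′ ends and do not tell spliced from unspliced xbp1. ddit3, which encodes the stress-induced factor Chop, was at 390, 238, 205 and 241 CPM in sorted cells and at 124, 87.7, 72.4 and 66.2 CPM in WKM neutrophils, end ratios of 0.70 (0.63 to 0.76) and 0.91 (0.71 to 1.11), or 0.25 and 0.42 with the median gene taken off. The sensor atf6 gave −0.21 (−0.37 to −0.05) and −0.25 (−0.54 to 0.03), or −0.65 and −0.74 relative to the median gene, and derl1, a channel component of ER-associated degradation, 0.33 and 0.60, or −0.12 and 0.12 relative to the median gene.

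**Figure D2:**
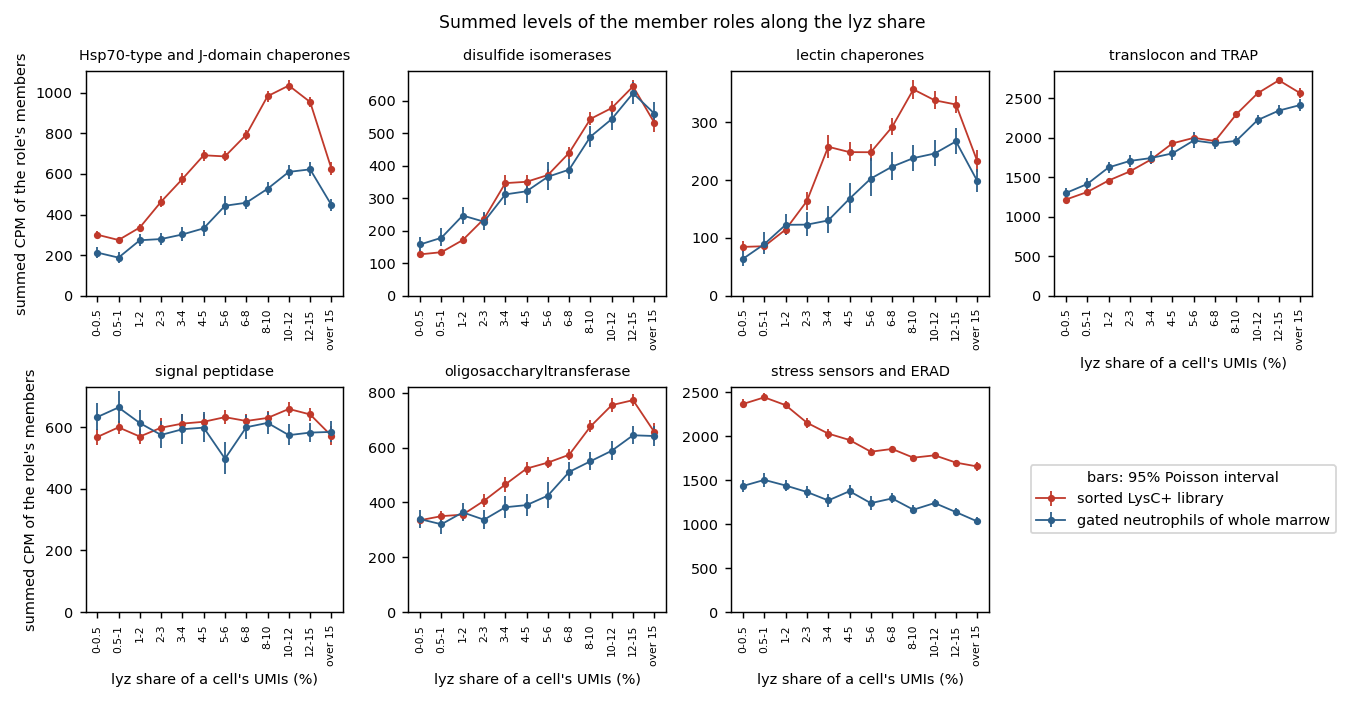
Summed CPM of each role are plotted over 12 finer classes of lyz share, in the sorted library (red) and in gated WKM neutrophils (blue), with 95% Poisson intervals. The chaperone sum in sorted cells peaks at 1034 CPM in cells of 10 to 12% lyz and is 625 CPM above 15%, signal peptidase runs level, and the stress group falls along the axis.

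Over finer classes of lyz share the increase was gradual rather than a step at one band edge. Summed chaperones in sorted cells were at 301 CPM in cells under 0.5% lyz, 463 CPM at 2 to 3%, 686 CPM at 5 to 6% and 1034 CPM at 10 to 12%. In the 306 sorted cells over 15% lyz they were back at 625 CPM, and in the 241 WKM neutrophils over 15% at 447 CPM against 622 CPM at 12 to 15%. The lectin chaperones behaved alike, with 330 CPM at 12 to 15% and 233 CPM over 15% in sorted cells. TRAP and translocon transcripts fell less in the same sorted cells, at 2729 and 2567 CPM, and did not fall in WKM neutrophils, at 2346 and 2416 CPM.

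The members also differed in where along the axis they moved. Between the under 2% and 2 to 5% bands of the sorted library, calr, calr3b, sdf2l1, pdia4 and hyou1 had the most negative log2 ratios, −2.54, −1.96, −1.77, −1.65 and −1.53. Between the 5 to 10% and over 10% bands the most negative were ssr2, ssr4, ssr3, sec61a1 and pdia3, from −0.60 to −0.47, while calr was at 0.21 and sdf2l1 at 0.18. WKM neutrophils gave ssr3, ssr4, sec61a1, rpn1 and canx at the last step, from −0.80 to −0.57, with calr3b at 0.29. In both libraries ssr3 and ssr4 were thus higher in the last band than in the one before it, and calr was not.

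Depth moved with lyz, so levels were also compared among cells of like depth. Among sorted cells of 1500 to 4000 UMIs, the 17 chaperones, isomerases and lectin chaperones summed to 547, 894, 1022 and 1547 CPM in the 4 lyz bands, in 4286, 2318, 1876 and 138 cells. Sorted cells over 4000 UMIs had higher sums in every band, at 895, 1694, 1872 and 1846 CPM. Sorted cells under 1500 UMIs had 458, 979, 1118 and 1703 CPM, so that the sum was not ordered by depth below 4000 UMIs. Within each depth the sum was higher over 10% than under 2% lyz, and over 4000 UMIs its last 2 bands were about level. Translocon and TRAP members depended less on depth, with 1328, 1766, 1952 and 2356 CPM at 1500 to 4000 UMIs and 1255, 1757, 2166 and 2645 CPM over 4000 UMIs.

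WKM neutrophils of 1500 to 4000 UMIs had folding sums of 495, 660, 765 and 930 CPM in 1400, 992, 504 and 107 cells. At this depth only 9 members were at least 2-fold lower and 2 were at least 2-fold higher between the end bands, of 33 with enough counts, while in the sorted library 23 of 39 were lower and 1 higher. The WKM pair was hyou1 and dnajb11, whose ratios rest on few counts in the 107 cells over 10% lyz. The few WKM neutrophils that were both under 2% lyz and over 4000 UMIs, 23 cells, went against the order, with a folding sum of 1838 CPM against 1409 CPM in the 787 deep cells over 10% lyz. The size of the lyz relation in WKM neutrophils therefore depended on depth, while its direction in the summed folding members was kept at 1500 to 4000 UMIs. Leaving out cells with a mitotic UMI gave 25 and 24 members lower in the sorted library and in WKM neutrophils, and leaving out sorted cells with an hsp70 UMI gave 25. The shares of all genes given above are for the unrestricted cells, so the member counts in this paragraph have no like background beside them.

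**Figure D3:**
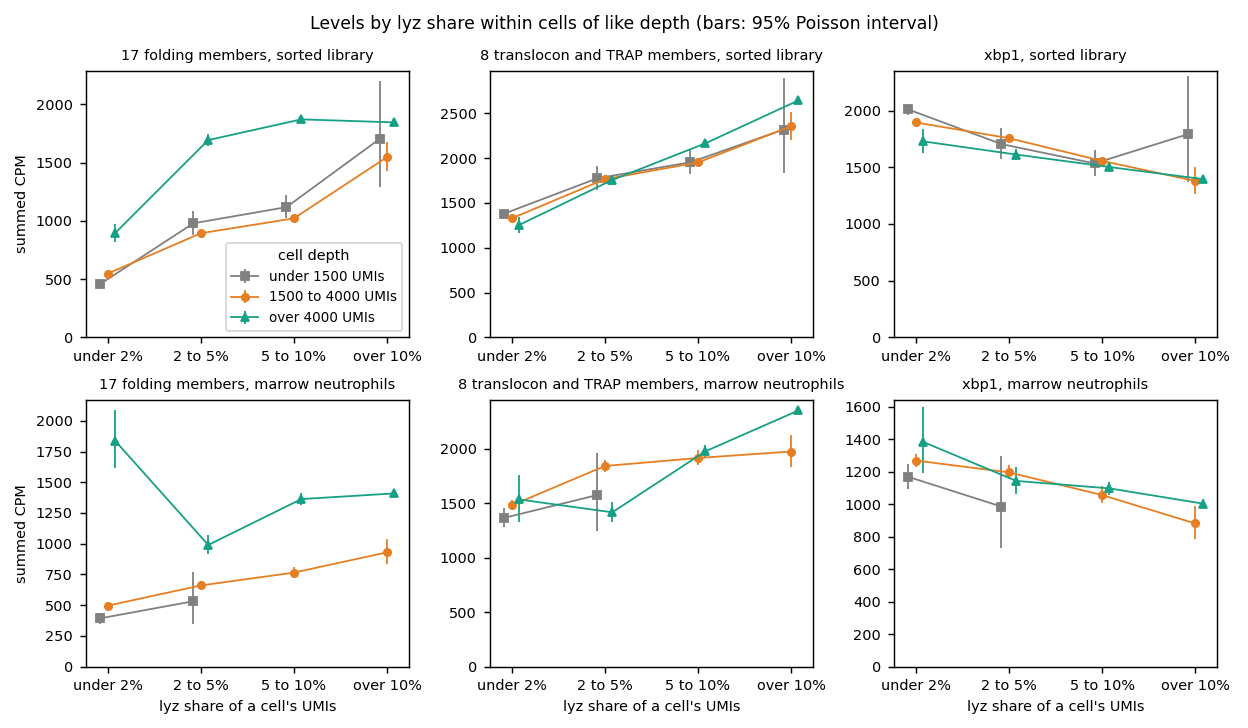
Summed CPM by lyz band are plotted for the 17 folding members, the 8 translocon and TRAP members and xbp1, within cells of under 1500, 1500 to 4000 and over 4000 UMIs, for the sorted library (top) and gated WKM neutrophils (bottom), with 95% Poisson intervals and groups under 20 cells left out. The folding sum rises with lyz at each depth in the sorted library except between the last 2 bands over 4000 UMIs, and the 23 deep low-lyz WKM neutrophils stand apart at 1838 CPM.

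Over all WKM cells, without the neutrophil gate, 1 of 39 members was at least 2-fold lower in cells under 2% lyz than in cells over 10% lyz and 0 were higher, with a median of −0.35, where 5.33% of all genes were lower and 22.0% higher. That member was p4hb, at 116 against 259 CPM, followed by ssr4 (−0.96), dnajc3a (−0.90), xbp1 (−0.88) and sec61b (−0.78). The other end held calr (0.17), hsp90b1 and hyou1 (0.13 each), ssr1 (0.12) and pdia6 (0.10). The lowest band then held 5020 cells, of which 1980 lay within the neutrophil gate.

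Further genes of the pathway did not move as one with the members. Of 111 other ER and secretory genes with enough counts in the sorted library, 14 were at least 2-fold lower in low-lyz cells and 10 higher, against 12.0% and 28.0% of all genes. Their median of −0.13 lay below the median of all genes in that comparison, though less far than that of the members. In WKM neutrophils 9 of 107 were lower and 10 higher, against 8.42% and 26.3%. The lower shares were thus those of all genes, and the higher shares were below them. Those lower in both libraries included fkbp11, a prolyl isomerase of secretory cells (3.76 against 31.0 CPM in sorted cells), the cargo receptor lman1 (6.81 against 32.6 CPM), serp1, which protects translocon clients (40.6 against 161 CPM), and txndc5 (8.09 against 29.7 CPM). Those higher in both included atf3 (1643 against 423 CPM in sorted cells and 485 against 112 CPM in WKM neutrophils) and trib3 (264 against 78.8 CPM and 157 against 35.3 CPM), a pair of stress-induced regulators that, like ddit3, act downstream of Atf4. herpud1, an ER-associated degradation factor, had 352 against 166 CPM in sorted cells and 162 against 80.0 CPM in WKM neutrophils. Among further glycosylation genes 4 of 18 were lower and 1 higher in sorted cells, and among ER export and COPI genes 2 of 32 were lower and 1 higher, where again 12.0% of all genes were lower and 28.0% higher.

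The secretory cargo counted alongside was not uniform. The protease genes npsn and cpa5 were at 3219 against 8665 CPM and at 1274 against 5568 CPM in the sorted end bands. The myeloperoxidase gene mpx was level on the CPM scale, at 2580 against 2652 CPM, and lower relative to the median gene. The cell cycle list had 12 of 12 genes at least 2-fold lower in low-lyz cells of both libraries, beside the ER members. Its part in the member counts was not tested, since a cell without a mitotic UMI may still be cycling.

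The sorted library was next divided by mmp9, the matrix metalloproteinase gene whose reporter the study sorted on. To keep depth out of the grouping, mmp9 UMIs were counted after thinning each cell to 1000 UMIs, while the levels below use all UMIs. Cells with 0 mmp9 UMIs after thinning are called mmp9-free below, but they were not without mmp9. Over all UMIs they had mmp9 at 94.8 CPM, against 2948 CPM in the mmp9-rich cells, those with 2 or more. Under 2% lyz these levels were 173 and 3498 CPM. Of 39 members, 13 were at least 2-fold lower in the 3005 cells with 2 or more mmp9 UMIs than in the 9658 cells with 0, and 0 were higher, with a median of −0.86, where 10.0% of all genes were lower and 7.23% higher. hspa5 stood at 310, 194 and 158 CPM in cells with 0, 1 and 2 or more mmp9 UMIs, pdia3 at 205, 115 and 84.4 CPM, and ssr4 at 294, 186 and 134 CPM. calr had the most negative ratio, −1.58 (9.41 against 28.1 CPM), followed by creld2, calr3b, dnajc3a and pdia6, from −1.49 to −1.28. The largest were ddit3 at 0.31, derl1 at 0.21, xbp1 at 0.16, spcs3 at 0.14 and ost4 at 0.06, and atf6 was at −0.10.

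The mmp9 and lyz axes overlapped. The mmp9-rich cells had 2.06% of their UMIs from lyz, against 7.80% in the mmp9-free cells, and taking the mean over cells in place of summed counts left 2 members lower, while joining cells with 1 mmp9 UMI to the mmp9-rich group left 4. Within the 2 to 5% lyz band 0 members were at least 2-fold lower and 0 higher (7.30% and 2.12% of all genes), with ratios from −0.54 for hsp90b1 to 0.37 for dnajb11, and within 5 to 10% only hyou1 was, at 27.9 against 61.5 CPM, or −1.14 (−1.74 to −0.60), with 0 higher (7.84% and 3.62% of all genes). The 5 to 10% band still had calr3b at −0.96, calr at −0.95, creld2 at −0.88, pdia6 at −0.75, hsp90b1 at −0.60, pdia3 at −0.58 and hspa5 at −0.55, against derl1 at 0.56 and sec11a at 0.19. Its mmp9-rich cells were shallower than its mmp9-free cells, at medians of 2007 and 3988 UMIs. The part of depth in these ratios was not tested. Over 10% lyz only 6 cells had 2 or more mmp9 UMIs, too few for a comparison.

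Below 2% lyz several chaperones went the other way. Of 39 members 4 were at least 2-fold higher in the 2198 mmp9-rich cells than in the 3218 mmp9-free cells and 0 were lower, where 4.16% of all genes were higher and 8.41% lower. These were manf at 30.8 against 10.4 CPM (1.56, 1.12 to 2.03), hyou1 at 17.6 against 6.46 CPM (1.44, 0.86 to 2.05), dnajb11 at 24.3 against 9.16 CPM (1.41, 0.92 to 1.91) and sdf2l1 at 10.0 against 4.49 CPM (1.16, 0.44 to 1.92). hspa5 followed at 125 against 77.0 CPM, or 0.70 (0.52 to 0.89), and pdia6 at 0.56, while tram1, rpn1, ssr2, sec61g and krtcap2 were at −0.57, −0.50, −0.45, −0.35 and −0.32. The last 5 did not pass 2-fold, and neither did hspa5 or pdia6.

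The cytosolic hsp70 genes moved with this contrast, at 1964 CPM in the mmp9-rich and 276 CPM in the mmp9-free cells under 2% lyz, and depth was 2105 against 1569 UMIs at the median. Among cells without any hsp70 UMI the ratios were 1.21 for manf, 0.77 for hyou1, 1.63 for dnajb11, 1.28 for sdf2l1 and 0.48 for hspa5, with 3 members at least 2-fold higher and 1 lower. The all-gene shares given for cells under 2% lyz include cells with hsp70 UMIs and are no background for this count. Any part of handling stress or depth in these ratios, with or without the cells holding hsp70 UMIs, was not tested.

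**Figure D4:**
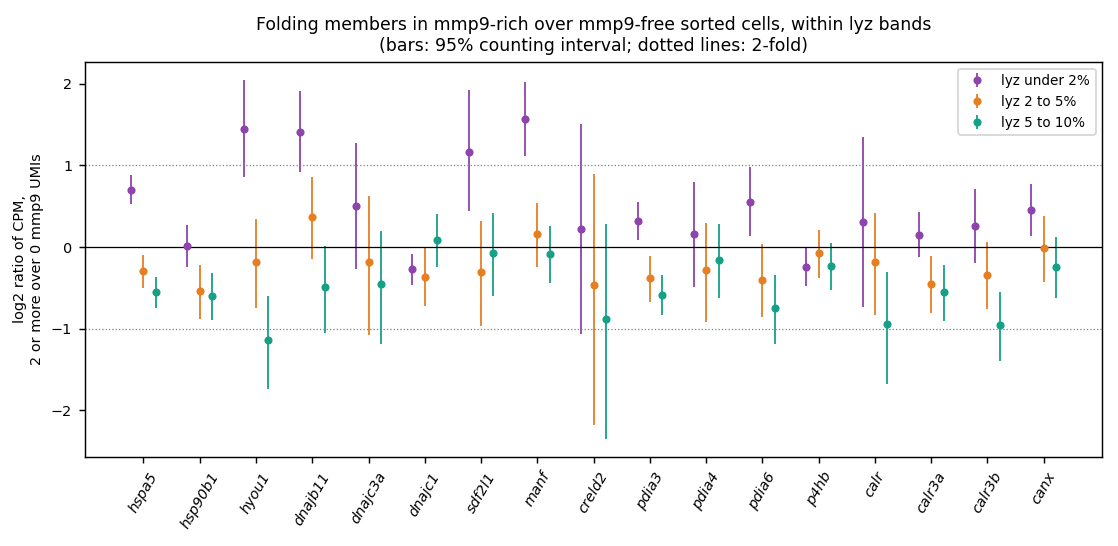
The log2 ratio of CPM in sorted cells with 2 or more mmp9 UMIs over cells with 0 is plotted for the 17 folding members within 3 lyz bands, with 95% counting intervals. manf, hyou1, dnajb11 and sdf2l1 lie above the 2-fold line in cells under 2% lyz (purple) only, and hyou1 lies below it at 5 to 10% lyz (green).

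Neutrophils of like lyz share were then set side by side between libraries. The sorted library had 1, 7, 2 and 1 of 39 members at least 2-fold higher than WKM neutrophils in the 4 bands from low to high lyz and 0 lower in each, where 7.25%, 7.24%, 7.00% and 5.67% of all genes were higher and 2.20%, 1.87%, 1.64% and 1.07% lower. ddit3 was the member past 2-fold in every band, at 390 against 124 CPM, 238 against 87.7 CPM, 205 against 72.4 CPM and 241 against 66.2 CPM, or log2 ratios from 1.44 to 1.86. hspa5 was at 0.89, 1.30, 0.95 and 0.84, and xbp1 at 0.61, 0.54, 0.49 and 0.49. Past 2-fold at 2 to 5% lyz were also hspa5, manf (1.30), calr (1.22) and hsp90b1 (1.07), among others. At 5 to 10% lyz hyou1 was the other member past it, at 1.03. p4hb was lower in the sorted library in every band, at −0.80, −0.35, −0.64 and −0.66, and sec61g was at −0.22, −0.30, −0.21 and 0.02. The sort, its handling and the library cannot be told apart here, and hsp70 differed in the same direction, as given above.

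The marrow also holds cells with other secretory loads, and classes were gated in WKM from markers that include no member. HSPC-like, erythroid-like, monocyte- or macrophage-like, B-cell-like and T- or NK-like gates held 576, 860, 540, 125 and 61 cells, and 1037 cells passed no gate. Leading genes outside the gate markers included nanos1 in the HSPC-like and igl4v8 in the B-cell-like cells. They also included grn1 in the monocyte- or macrophage-like cells and ccl34b.4 in the T- or NK-like cells. Gate markers such as meis1b, pax5, c1qa and nkl.4 led too, which the gating itself brings about. lyz, a gauge of free neutrophil RNA, was at 893, 302, 204, 445 and 547 CPM in them and at 75688 CPM in the neutrophils.

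Monocyte- or macrophage-like cells had the highest ER levels of the gated classes. They were also the deepest, at a median of 9812 UMIs against 2494 in neutrophils, and the part of depth was not tested. Their members took 0.811% of UMIs, against 0.530% in neutrophils, and 20 of 39 members were at least 2-fold higher and 0 lower than in neutrophils, with a median 0.93 above that of all genes, where 18.4% of all genes were higher and 16.6% lower. hyou1 stood at 98.3 against 25.8 CPM (1.93, 1.74 to 2.11), pdia6 at 163 against 46.0 CPM (1.82), hsp90b1 at 253 against 71.6 CPM (1.82), calr at 58.0 against 17.3 CPM (1.75) and canx at 157 against 51.3 CPM (1.61). All 4 lectin chaperones, 7 of 9 chaperones and 3 of 4 isomerases were past 2-fold, the exception among the isomerases being p4hb at 0.30. Signal peptidase and the stress group had 0 past 2-fold, with spcs3 at −0.34, xbp1 at −0.30, sec61g at −0.09, atf6 at 0.02, derl1 at 0.15 and ddit3 at 0.35. The 3 folding roles, which were lower in low-lyz neutrophils, were thus higher in the monocyte- or macrophage-like cells, whose own lyz level was the lowest of the 5 classes.

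HSPC-like cells lay within 2-fold of neutrophils in most members, with 2 of 39 at least 2-fold lower and 0 higher and a median of −0.11, where 26.9% of all genes were lower and 19.6% higher. The 2 were xbp1, at 261 against 1107 CPM, or −2.08, and ddit3, at 28.2 against 84.3 CPM, or −1.58. Next came tram1 at 71.8 against 143 CPM, spcs3 at −0.99 and atf6 at −0.93, while calr (0.88), hyou1 (0.87), creld2 (0.65), pdia6 (0.61) and ssr1 (0.61) were highest. Members thus went both ways by role. Summed chaperones (494 against 424 CPM) and lectin chaperones (210 against 186 CPM) were higher than in neutrophils. The other roles were lower, with signal peptidase at 368 against 595 CPM and translocon and TRAP members at 1443 against 1940 CPM. The counts of 2 lower and 0 higher moved with the scaling, to 6 lower with globin genes and lyz left out of the total and to 4 lower and 7 higher with the mean over cells. The all-gene shares above are for the main scaling and are no background for the moved counts.

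Erythroid-like cells had 36 of 39 members at least 2-fold lower than neutrophils and 0 higher, with a median of −2.03, where 51.2% of all genes were lower and 9.47% higher. Their globin genes took 49.8% of UMIs, which lowers every other gene's CPM, and the median of all genes was −1.04. Under median-of-ratios scaling, 19 members were past 2-fold. The all-gene shares just given are on the CPM scale and are no background for that count. xbp1 was at 26.1 against 1107 CPM (−5.41, −5.62 to −5.20), ddit3 at 4.70 against 84.3 CPM (−4.17), dnajc3a at −3.91, calr at −3.26, canx at −3.01 and atf6 at −1.69. The least unequal were creld2 (−0.37), ssr1 (−0.84), calr3b (−0.99), rpn1 (−1.03) and derl1 (−1.18), and relative to the median gene the first 4 lay at 0.68, 0.20, 0.046 and 0.011, above it.

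B-cell-like cells, of which 2 had over 100 UMIs of the immunoglobulin light chain gene igic1s1, had 5 members at least 2-fold lower and 3 higher than neutrophils, where 28.9% of all genes were lower and 21.2% higher. The 3 were calr (42.4 against 17.3 CPM, 1.30), sdf2l1 (40.1 against 18.5 CPM, 1.12) and hsp90b1 (144 against 71.6 CPM, 1.01). The lowest among members with at least 100 counts were xbp1 at −2.11, atf6 at −1.30, dnajc1 at −1.23, sec61b at −1.05 and p4hb at −0.76. Of these p4hb did not pass 2-fold. The remaining member of the 5 was creld2, at 2.36 against 5.52 CPM, both under the 3-count level of 7.07 CPM in the B-cell-like cells.

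The 61 T- or NK-like cells held 157248 UMIs, so that 3 counts were worth 19.1 CPM and many members rested on few counts. There, 7 members were at least 2-fold lower and 1 higher than in neutrophils, where 35.7% of all genes were lower and 20.8% higher. rpn2 had 0 counts and is left out of the 7, since its neutrophil level of 8.57 CPM was under the 3-count level and gives no fold. The all-gene shares cover every gene with at least 20 counts over both groups, which can include genes with 0 counts here. These shares are thus only a rough background for the 7. xbp1 was at 356 against 1107 CPM (−1.64, −2.04 to −1.26), p4hb at −1.53, manf at −1.52 (−4.57 to 0.33), ost4 at −1.40, ddit3 at −0.92 and atf6 at −0.55, and the member past 2-fold upward was hyou1, at 63.6 against 25.8 CPM (1.30, 0.23 to 2.19). xbp1 was thus lower than in neutrophils in all 5 classes, by 0.30 on the log2 scale in the monocyte- or macrophage-like cells and by 1.64 or more in the others.

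**Figure D5:**
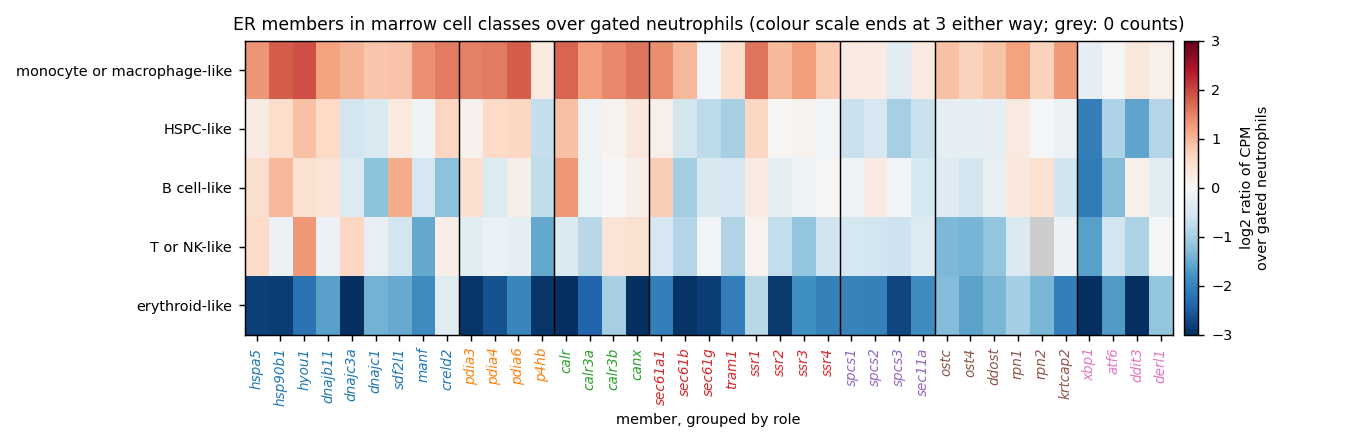
The log2 ratio of CPM in each gated WKM class over gated neutrophils is shown as color for the 39 members, ordered by role, with the scale ending at 3 in either direction and 0 counts in gray. The monocyte- or macrophage-like row is red across the folding roles, the erythroid-like row is blue throughout on this scale, although creld2, ssr1, calr3b and rpn1 lay above the median gene, and xbp1 is blue in every row.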

How the data were processed

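The 2 libraries were made with 10x Genomics 3′ chemistry. The deposited files hold UMI counts per gene and cell, which the authors made with Cell Ranger 3.1.0 on GRCz11, with Seurat 4.0.2 also listed in the submitters' processing notes. All count columns were mapped. Cells with at least 500 detected genes and under 10% mitochondrial UMIs were kept, and doublets called by Scrublet in Scanpy 1.11.5 (expected share 10%) were removed: 1797 of 16899 sorted cells and 122 of 8313 WKM cells.

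Counts were summed over the cells of a group and scaled to CPM. A log2 ratio between groups has an exact binomial (Clopper-Pearson) interval and a level an exact Poisson interval, both 95%. Conditions without a second library allowed no test. A gene was compared where it had at least 20 counts over both groups, and a member was called higher or lower from 2-fold. Classes were gated in WKM by markers: at least 2% of UMIs from neutrophil markers, 10% from globins and other erythroid markers, or 3 monocyte, 2 B, 2 T or NK or 2 HSPC marker UMIs. All gates but the erythroid one also required under 10% of UMIs from erythroid markers. All but the neutrophil gate required under 0.5% from neutrophil markers. In WKM, 351 cells had a neutrophil marker share of 0.5 to 2%, and 1999 cells (24.4%) had an erythroid marker share of 5 to 15%. At 1.5 to 2.5% lyz lay 1329 sorted and 667 WKM cells.

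Values were drawn from the members of each role with the most counts, the 5 largest and 5 smallest ratios of each comparison among members with at least 100 counts, and xbp1, atf6 and ddit3. Not all of these are printed in every comparison. Only some are given between libraries, between neighboring lyz bands, by mmp9 within lyz bands, and in the B-cell-like and T- or NK-like cells. Other members, and the genes outside the list, were named after their values were seen. Members and lists were chosen with earlier results of these data known. The scripts were tested on simulated data. Python 3.11.15, NumPy 2.4.6, pandas 2.3.3, SciPy 1.17.1 and matplotlib 3.10.9 were used.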

Additional observations from a re-analysis of the deposited data

Results flagged for a closer look

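A small set of members had ratios of opposite sign in the groups set side by side, with intervals on opposite sides of 0, and the difference itself was not tested. In cells under 2% over cells over 10% lyz, tram1 and spcs1 were slightly lower in the sorted library and slightly higher in WKM neutrophils, with differences of −0.36 and −0.37 on the log2 scale. Relative to the median gene both were lower in both libraries, tram1 at −0.61 and −0.30 and spcs1 at −0.65 and −0.33. In sorted cells with 2 or more over 0 mmp9 UMIs, hspa5 and pdia3 had ratios under 2% lyz that lay 0.999 and 0.70 above those at 2 to 5% lyz. Set against the 5 to 10% band, the ratios under 2% lyz lay 1.25 higher for hspa5, 2.58 for hyou1, 0.90 for pdia3, 1.31 for pdia6 and 0.78 for ost4. The hsp70 genes stood at 1964 CPM in the mmp9-rich and 276 CPM in the mmp9-free cells under 2% lyz, and at 802 against 459 CPM at 5 to 10% lyz, and their part in these differences was not tested. Median depth of the mmp9-rich and mmp9-free cells was 2105 against 1569 UMIs under 2% lyz and 2631 against 2460 UMIs at 2 to 5%. At 5 to 10% lyz it lay the other way, at 2007 against 3988 UMIs. The part of depth was not tested either.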

How the results depend on the processing

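No paired analysis was possible because each condition has 1 library. Of 188 counts of members recomputed under other settings, 161 stayed within 1.5 times. Counts of 0 in both settings are among the 161, and most main comparisons had a count of 0 in at least 1 direction. The 161 therefore say little about how stable the counts above 0 were. The all-gene shares given earlier belong to the main setting and are no background for the recomputed counts. Of 3648 single ratios, 2765 moved by no more than their interval and 877 moved further. The remaining 6 were past 2-fold in the main setting and changed sign. Sign changes were counted only for ratios past 2-fold, so those of smaller ratios lie within the 2765 and 877. The sorted lyz count of 25 lower members ranged from 23 to 28, with 1 higher at 1500 to 4000 UMIs. Gated WKM neutrophils gave 9 lower and 2 higher at that depth. All WKM cells gave 4 lower with lyz left out of the total, 5 with median-of-ratios scaling, 4 with the mean over cells, 2 with bands at 1 and 15%, 2 without cycling cells, 4 lower and 3 higher at 1500 to 4000 UMIs, and 23 lower in gated neutrophils. By mmp9, 2 were lower with the mean over cells and 4 with 1 or more mmp9 UMIs, and under 2% lyz 1 was lower without hsp70 UMIs. HSPC-like cells gave 5 lower with lyz left out, 6 with globin genes left out too, 4 lower and 7 higher with the mean over cells, and 1 higher with median-of-ratios scaling. Erythroid-like cells gave 19 lower with median-of-ratios scaling, B-cell-like cells 3 lower with the mean over cells and 3 with a stricter gate, and T- or NK-like cells 2 higher with at least 800 genes, 2 with the mean over cells and 2 with a stricter gate. Between libraries at 5 to 10% lyz, 1 was higher with doublets kept and 1 without hsp70 UMIs. Those 6 were, at 1500 to 4000 UMIs, dnajb11 at 0.061 in sorted cells and hyou1 at 1.57, dnajb11 at 2.15 and manf at 0.33 in WKM neutrophils, and rpn1 at 0.011 in erythroid-like cells with median-of-ratios scaling and creld2 at 0.074 in B-cell-like cells with the mean over cells. The WKM neutrophil ratios at 1500 to 4000 UMIs rest on few counts in the high-lyz cells. The cause of these sign changes was not tested. The settings without hsp70 UMIs, with globin genes left out, with doublets kept between libraries, and those on gated WKM neutrophils were chosen after seeing the data. Among the gated classes depth limits most the 61 T- or NK-like cells, where 3 counts equal 19.1 CPM.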

Other observations

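The 1037 WKM cells that passed no gate had 0.521% of their UMIs from the members, below the 0.530% of neutrophils and the 0.811% of monocyte- or macrophage-like cells. Their hspa5 and hsp90b1 levels, 268 and 147 CPM, lay between the neutrophil levels of 149 and 71.6 CPM and the monocyte- or macrophage-like levels of 376 and 253 CPM. xbp1, at 669 CPM, lay below both, at 1107 and 897 CPM. The 2 B-cell-like cells with over 100 igic1s1 UMIs held 5744 UMIs in all and 0.575% from the members, too few to compare gene by gene. Among further oxidoreductases and prolyl isomerases, 5 of 14 genes were at least 2-fold lower in sorted low-lyz cells and 1 was higher, and among further stress response and ER-associated degradation genes 2 of 24 were lower and 6 higher, where 12.0% of all genes were lower and 28.0% higher.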
